A study of Mus musculus with 4 samples.

Results

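The clustered protocadherins are neuronal adhesion genes that lie next to each other on mouse chromosome 18, and they were examined here in cerebellum lacking the histone H3K27 demethylase KDM6B in granule neuron precursors. Members were taken by symbol, as every gene named Pcdha, Pcdhb or Pcdhg with its isoform number or C-type letter. This gave 57 of the 55341 genes in the count files, with 13 in the alpha cluster, 22 in the beta cluster and 22 in the gamma cluster. RNA-seq had been done on whole cerebellum of mice at postnatal day 14, with 2 Atoh1-Cre; Kdm6b fl/fl mice (cKO) set against 2 littermates that were Kdm6b fl/fl without Cre (WT). Both groups thus carried loxP-flanked Kdm6b alleles on both chromosomes. Atoh1 drives Cre in the granule neuron lineage, so Purkinje cells, interneurons, glia and vessels in the same tissue kept Kdm6b. The study asked how loss of KDM6B altered expression while cerebellar granule neurons mature. Each library came from 1 mouse, so the tests below measure the spread between mice.

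Clustered protocadherins are cell-surface proteins of the cadherin superfamily that bind the same isoform on a facing membrane. By this recognition branches of 1 neuron can tell themselves from those of their neighbours, and loss of the gamma cluster is known to disturb dendrite self-avoidance in Purkinje cells. In the alpha and gamma clusters each isoform has its own promoter and large first exon, which is spliced to constant exons shared by the whole cluster, whereas beta genes are single-exon genes without a constant part. Alternate isoforms are switched on in a random few per cell through CTCF and cohesin, with DNA methylation keeping other promoters silent. The C-type isoforms at the end of the alpha and gamma clusters are instead expressed in most neurons.

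The libraries held 8811849 to 9892363 counts in genes, of which 7324 to 8054 fell in clustered protocadherins, or 0.080% to 0.083%. The loxP sites flank only the Kdm6b exons that encode the catalytic domain, while its counts cover the exons of the whole gene in all cells. The values that follow therefore do not measure how far the deleted part was lost. Kdm6b was at 127 and 119 CPM (counts relative to the TMM-scaled library size) in cKO and at 154 and 154 CPM in WT, a change of −0.33 on the log2 scale with an SE of 0.076 (edgeR adjusted p = 0.016). This call did not hold when any 1 library was left out, with edgeR adjusted p between 0.111 and 0.493, or with no filter on low counts (0.072). The libraries cKO 1 and WT 1 stood apart, and for a number of genes below the fold change without single libraries is also given. The library cKO 1 held RNA of the choroid plexus, with its 6 markers summing to 663 CPM against 23.1 CPM in cKO 2 and 12.2 and 10.2 CPM in WT. Xist was at 1409 and 1599 CPM in cKO and at 0.43 and 1359 CPM in WT, and the Y-linked Ddx3y was at 0 and 0.11 CPM in cKO and at 70.5 and 0 CPM in WT, so sex ran partly with genotype. Of the cell type markers, 6 of 8 for mature granule neurons fell in cKO, while 5 of 8 for newborn neurons and 4 of 5 tested for granule progenitors rose. The 6 progenitor markers summed to 173 CPM in cKO 1 and 281 CPM in cKO 2, against 112 and 138 CPM in WT. The cKO mice thus also differed from each other in this list. Of the other lists, 3 of 4 tested choroid plexus markers rose, 3 of 7 oligodendrocyte markers fell, 1 of 7 Bergmann glia and astrocyte markers rose and 2 fell, and 1 of 6 Purkinje cell markers rose and 1 fell. No marker of interneurons, vessels or microglia passed the test. All of these calls, like every call over all genes, were lost without cKO 1 and without cKO 2, where edgeR called 0 genes.

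What the counts can see of these genes is set by the exons that isoforms share. The 57 genes span 911.7 kb of GRCm38 chromosome 18, from 36930184 to 37841873, and all are read from the plus strand. In the alpha cluster 13 genes share 3 constant exons of 59, 89 and 2712 bases (chr18:37156155-37156213, chr18:37159265-37159353 and chr18:37184946-37187657). In the gamma cluster 22 genes share 3 constant exons of 59, 89 and 1971 bases (chr18:37825021-37825079, chr18:37833265-37833353 and chr18:37839903-37841873). Reads in such exons belong to several genes at once, and the authors' exon counting left them out of gene counts. This can be seen in Pcdha4, which contains the constant exons and yet had 0 counts in cKO 1. A count for an alpha or gamma isoform is therefore a count over exon bases of that gene alone, which for most isoforms is the large first exon, and the constant exons were not measured. In Pcdha4, Pcdha11, Pcdhgb1, Pcdhgb4 and Pcdhgc5 the unshared bases lie in more than 1 block. The shared part was a median of 53.6% of exon length in the alpha cluster and 44.7% in the gamma cluster. In the beta cluster only Pcdhb21 and Pcdhb22 shared bases, 455 of them. Levels of different genes are therefore compared per kb of exon that belongs to that gene alone.

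**Figure D1:**
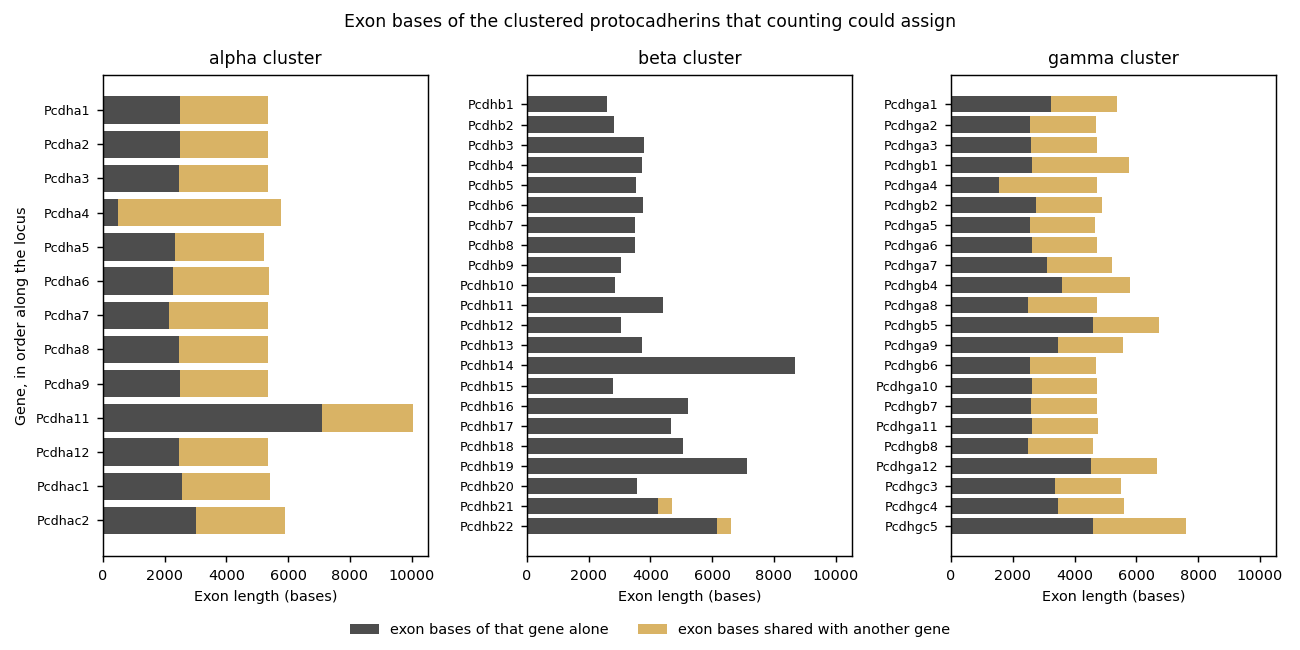
Exon length in bases (horizontal) for each of the 57 genes in order along the locus, with exon bases of that gene alone in grey and bases shared with another gene in ochre. Most alpha genes keep the smaller portion of their exon length, Pcdha4 keeps 494 bases, and beta genes keep nearly all of theirs.

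A few genes need separate remarks. Pcdha4 kept only 494 bases, because the read-through gene Gm42416, with 0 counts in every library, covers most of its first exon. Pcdha11 is a symbol shared by 2 gene identifiers, whose counts are pooled in the files. Pcdhgb8 is annotated as a polymorphic pseudogene. First exons also resemble each other, but over runs of 150 bases, the read length, the share found in another gene was at most 4.03% in the alpha cluster, 0.22% in the beta cluster and 5.74% in the gamma cluster. The highest shares were those of Pcdhgb1 and Pcdhgb2, which match each other.

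Antisense genes lie over the unshared exons of 13 members. The counting used strand, since all 2613 unshared bases of Pcdhga10 lie under exons of the antisense gene Gm26672 and yet both genes had counts. Pcdhga10 had 122 and 90 counts in cKO against 109 and 116 in WT, and Gm26672 had 410 and 341 against 332 and 407. Whether the libraries themselves kept strand is not given in the sources used here. Over 111 antisense genes that lie at least 90% inside the exons of a host gene, the antisense gene had a median of 1.80 times the counts per base of its host (quartiles 1.05 and 2.63), while 48.8% to 49.6% of all entries fell in no feature. BC037039, which covers 1559 bases of the Pcdhgc3 exon from the other strand, had 1487 and 1402 counts in cKO and 1319 and 1559 in WT, or 1.09 times the counts per base of Pcdhgc3. Reads of such a gene and of its antisense partner cannot be told apart without stranded libraries. Values of antisense genes here are thus counts assigned to them and may hold reads of their hosts. The counts of the 13 members may in turn hold reads of the antisense genes.

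In both genotypes a C-type gene led its cluster. Pcdhgc3, a C-type isoform expressed in glia and choroid plexus as well as in neurons, had 62.3 and 64.6 CPM per kb in cKO and 62.3 and 67.3 CPM per kb in WT. This single gene made up 46.5% and 46.7% of the gamma cluster's CPM in cKO and 46.3% and 47.3% in WT, and its mean level per kb was 7.04 times that of Pcdhga11, the highest alternate gamma isoform. Pcdhac2, needed for the even tiling of serotonergic axons, led the alpha cluster with 15.6 and 15.1 CPM per kb in cKO and 15.8 and 16.6 in WT. It took 45.1% and 42.9% of the alpha cluster's CPM in cKO and 46.0% and 47.6% in WT. The third C-type gene by level was Pcdhgc4, which is required for the survival of many neurons, with 8.44 and 8.83 CPM per kb in cKO and 9.21 and 8.17 in WT. Pcdhgc4, Pcdhac1 and Pcdhgc5 lay within the range of the alternate isoforms of their clusters, with mean levels over the 4 libraries of 8.66, 2.34 and 1.90 CPM per kb.

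Alternate isoforms lay below Pcdhgc3 and Pcdhac2 and spread over a wide range. The 11 alpha symbols ran from 0.556 to 3.83 CPM per kb (median 1.93), with Pcdha12 and Pcdha9 highest and Pcdha1 lowest. Among these, Pcdha11 pools 2 gene identifiers in a single value. The 22 beta genes ran from 0.050 to 5.34 CPM per kb (median 2.47), with Pcdhb20, Pcdhb17 and Pcdhb9 highest and Pcdhb1 lowest. The 19 gamma isoforms ran from 1.14 to 9.11 CPM per kb (median 3.77), with Pcdhga11, Pcdhgb6, Pcdhga7 and Pcdhga6 highest and Pcdhgb8, the pseudogene, lowest. Within the beta cluster the level tended to be higher toward the gamma cluster, with a rank correlation of 0.598 between gene order and level over 22 genes. The same measure was 0.491 over the 11 alternate alpha symbols and 0.102 over the 19 gamma isoforms. These genes share the same 4 libraries, and the values describe them only.

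**Figure D2:**
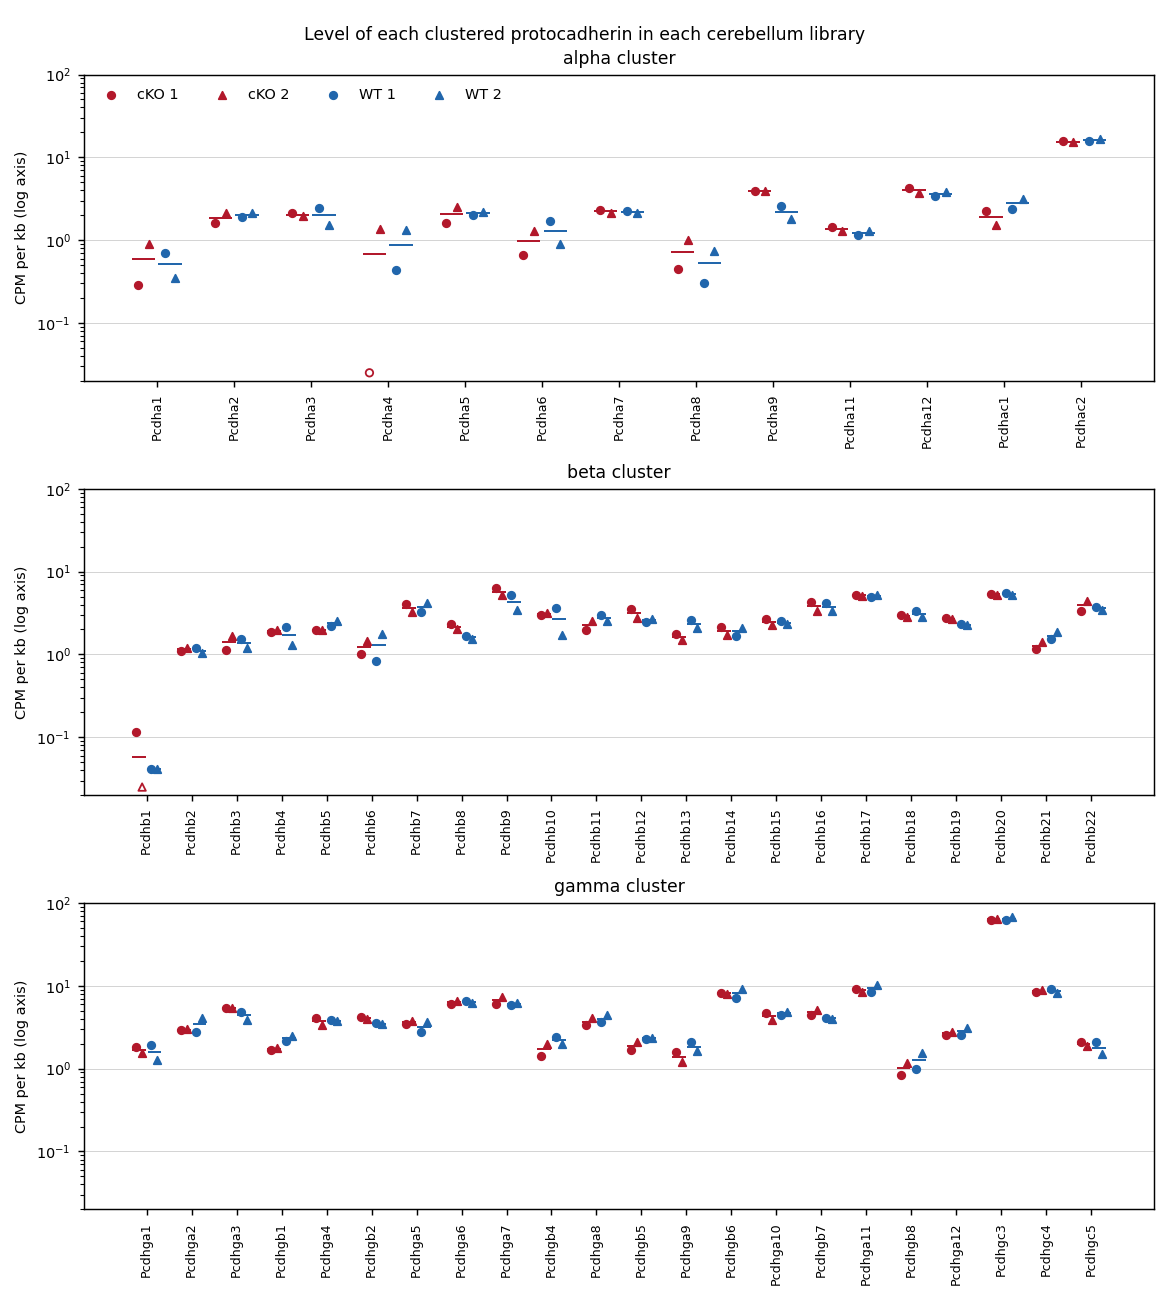
Level of each gene in CPM per kb of unshared exon (vertical, log axis) by gene in order along the locus (horizontal), for cKO 1 and cKO 2 in red and WT 1 and WT 2 in blue, with a line at each group's mean; open symbols at the lower edge mark 0 counts. Pcdhgc3 and Pcdhac2 stand above their clusters in all 4 libraries, and Pcdhb1 lies below all other beta genes.

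The ranking was much alike in cKO and WT, with a rank correlation of 0.940 between the mean levels of the genotypes over the 57 genes. Both levels of a gene use the same exon length, which adds to this value. Pcdhb1, at the start of its cluster and apart from the other beta genes, had 3 and 0 counts in cKO and 1 and 1 in WT. Pcdha4 had 0 and 6 counts in cKO and 2 and 6 in WT over its 494 bases. These were the only members with too few counts to be tested, and no member was at 0 in all 4 libraries.

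Summed over each cluster, cKO and WT differed by less than the mice of one genotype did. The alpha cluster summed to 104.8 and 106.9 CPM in cKO and to 103.9 and 105.5 CPM in WT, a log2 ratio of 0.016 with a pooled SD between mice of 0.018. For the beta cluster the sums were 254 and 246 CPM in cKO and 252 and 235 CPM in WT, with a log2 ratio of 0.038 and an SD of 0.054. For the gamma cluster they were 453 and 468 CPM in cKO and 455 and 481 CPM in WT, with a log2 ratio of −0.023 and an SD of 0.046. Over all 57 genes the libraries held 811.8 and 820.4 CPM in cKO against 810.3 and 821.4 CPM in WT. The genotypes overlapped in the sum of every cluster and of all 57 genes. The 52 genes that are not C-type summed to 509 and 513 CPM in cKO and 504 and 500 CPM in WT. These did not overlap, at a log2 ratio of 0.025. The 5 C-type genes summed to 303 and 307 CPM in cKO and 306 and 321 CPM in WT, which overlapped, at −0.040. In whole tissue, fewer cells of a type and less RNA per cell cannot be told apart. The alpha ratio moved by more than its SD under 3 alternatives, to −0.0038 under upper-quartile scaling, 0.046 under scaling by library size alone and 0.091 without Pcdhac2.

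**Figure D3:**
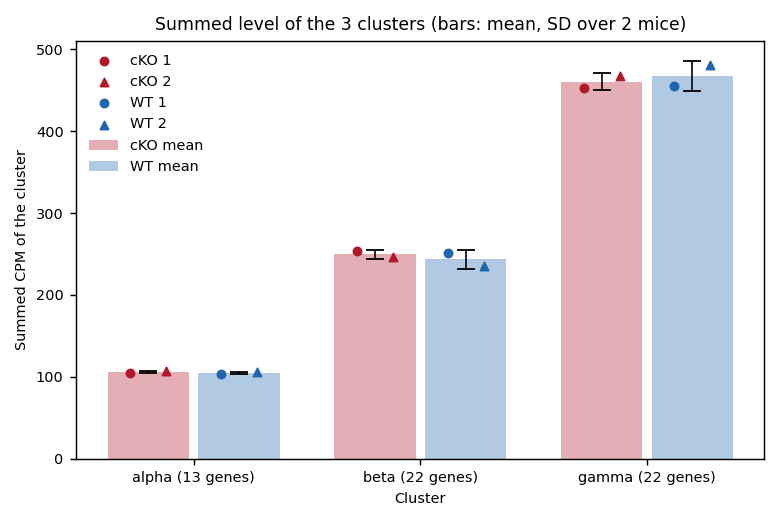
Summed CPM of all genes of a cluster (vertical) for the alpha, beta and gamma clusters (horizontal), with cKO in red and WT in blue; bars are means, whiskers the SD over 2 mice, and symbols the single libraries. The cKO and WT libraries lie at like heights in each cluster, near 105 CPM for alpha and above 450 CPM for gamma.

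Gene by gene, no clustered protocadherin passed the test. Of the 55 tested members 0 were higher in cKO, where 1.87% of the 16617 tested genes were, and 0 were lower, where 2.17% were (edgeR quasi-likelihood test, adjusted p under 0.05). At an unadjusted p under 0.05 there were 3 members, Pcdha9, Pcdhb9 and Pcdhb13, or 5.45% of those tested, beside 16.3% of all tested genes. DESeq2 called 0 members, but it gave no adjusted p for some members, such as Pcdha9, and so could not call these. The limma-voom fit called 0. In 8 members both cKO libraries lay above both WT libraries, or 14.5%, beside 23.2% of all tested genes. In another 8 both lay below, again 14.5%, beside 23.2%. The remaining 39 members overlapped between genotypes.

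Members split evenly by sign, with 27 above 0 and 28 below 0 and a median log2 fold change of −0.0070, next to 0.0036 over all tested genes. By cluster the median was 0.030 over 12 alpha genes, 0.028 over 21 beta genes and −0.029 over 22 gamma genes. Precision followed the counts, from a standard error of 0.071 for Pcdhgc3, with 8098 counts, to 0.57 for Pcdha1, with 51. In 48 of 55 members the 95% interval of the fold change lay within 2-fold in either direction, and in 15 it lay within 0.5 on the log2 scale. In most members smaller changes were therefore not detectable at this depth, whereas the interval of Pcdhgc3 ran only from −0.18 to 0.12. With 2 mice against 2 an exact permutation test of 1 value cannot go below p = 0.333.

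**Figure D4:**
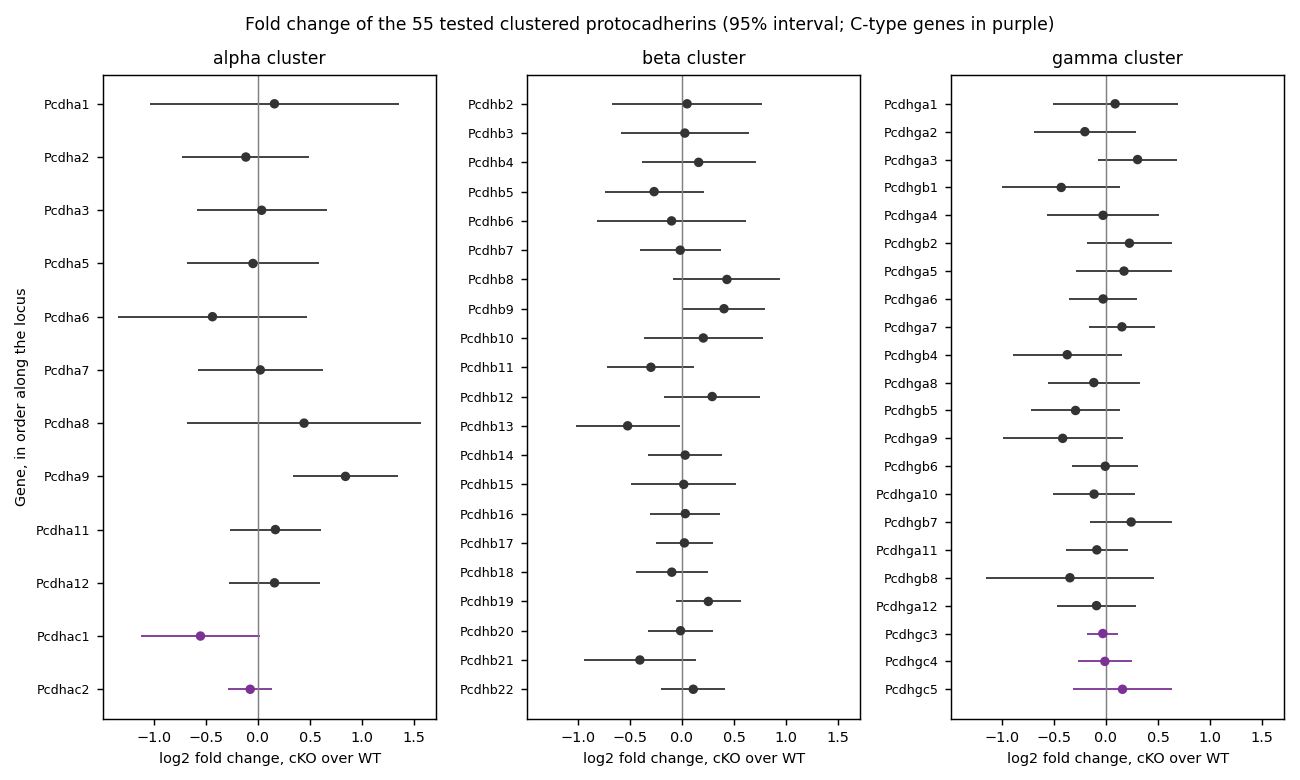
Fitted log2 fold change of cKO over WT (horizontal) with its 95% interval for the 55 tested genes in order along the locus, C-type genes in purple. Pcdha9 lies farthest to the right at 0.84, Pcdhac1 farthest to the left at −0.55, and Pcdhgc3 has the narrowest interval.

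Of the 5 C-type genes, Pcdhgc3, Pcdhac2 and Pcdhgc4 had enough counts for narrow intervals. Pcdhgc3 had 211 and 218 CPM in cKO and 210.4 and 228 CPM in WT, and the groups overlapped. Its log2 fold change was −0.030 with a 95% interval from −0.18 to 0.12 (edgeR adjusted p = 0.890). The library cKO 1, with its choroid plexus RNA, lay below cKO 2 for this gene. The part of that RNA in the value of Pcdhgc3 was not tested. Without cKO 1, without cKO 2, without WT 1 and without WT 2 its log2 fold change ran from −0.086 to 0.028. Pcdhac2 had 47.3 and 45.8 CPM in cKO and 47.8 and 50.2 CPM in WT, with both cKO libraries just below both WT libraries. Its log2 fold change was −0.074 with an interval from −0.28 to 0.14 (edgeR adjusted p = 0.791), and ran from −0.11 without WT 1 to −0.037 without WT 2. Pcdhgc4 had 29.3 and 30.7 CPM in cKO and 32.0 and 28.4 CPM in WT, which overlapped, with a log2 fold change of −0.011 and an interval from −0.27 to 0.25. Pcdhgc5, which appears late in postnatal development, had 9.78 and 8.63 CPM in cKO and 9.60 and 6.91 CPM in WT, and these also overlapped.

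Pcdhac1 was the member with the most negative fold change of all 55. It had 57 and 35 counts in cKO against 57 and 75 in WT, or 5.74 and 3.92 CPM against 6.15 and 8.10 CPM. The cKO libraries were below the WT ones, but cKO 1 and WT 1 lay close together. Its fitted log2 fold change of −0.55 had an SE of 0.276 and an interval from −1.13 to 0.024 (edgeR adjusted p = 0.335), and it was −0.86 without cKO 1, −0.74 without WT 1, −0.34 without WT 2 and −0.31 without cKO 2.

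Pcdha9 (chr18:36997880-37187657, first exon ending at 37000360) came closest to the threshold. It had 96 and 88 counts in cKO and 60 and 41 counts in WT, which is 9.68 and 9.86 CPM against 6.47 and 4.43 CPM. Both cKO libraries were alike and above both WT libraries, which differed from each other. The means were 9.77 ± 0.13 CPM in cKO and 5.45 ± 1.45 CPM in WT (SD, n = 2 each). The log2 fold change was 0.84 (SE 0.244, interval 0.33 to 1.35), with an unadjusted p of 0.0025 and an edgeR adjusted p = 0.056. The call turned on the settings, and with all libraries the edgeR and limma-voom adjusted p ran from 0.017 to 0.175. It passed with library size alone (0.044), with the replicate number as a block (0.017) and without WT 1 (log2 fold change 1.14). It did not pass with no filter on low counts (0.175) or without WT 2 (log2 fold change 0.59). Without cKO 1 and without cKO 2, where every call over all genes was lost, the log2 fold change was 0.85 and 0.83. DESeq2 gave an unadjusted p of 0.014 and no adjusted p for this gene. The first exon of Pcdha9 has no antisense gene over it, and 2.79% of its 150-base windows also occur in Pcdha11 or Pcdha1.

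The 11 alternate alpha symbols together summed to 51.8 and 57.1 CPM in cKO and 49.9 and 47.2 CPM in WT, without overlap and with a log2 ratio of 0.17. Without Pcdha9 the sums were 42.1 and 47.3 CPM in cKO and 43.5 and 42.8 CPM in WT, which overlapped, with a log2 ratio of 0.052. The difference in the sum thus came mostly from 1 gene, which was left out here after its value was seen. Pcdha12 had 10.7 and 9.30 CPM in cKO and 8.41 and 9.50 CPM in WT, which overlapped. Its log2 fold change was 0.16, and ran from 0.055 without cKO 1 and 0.075 without WT 1 to 0.25 without WT 2 and 0.26 without cKO 2. Pcdha11 had 10.2 and 9.07 CPM in cKO and 8.09 and 9.07 CPM in WT, so that the nearest libraries of the genotypes almost coincided. Of the other alternate isoforms, Pcdha2, Pcdha3, Pcdha5 and Pcdha7 lay between −0.12 and 0.036. The sparse isoforms Pcdha1, Pcdha6 and Pcdha8, with 51 to 96 counts in all, had intervals that reached beyond 2-fold and overlapping libraries.

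Beta genes, most of which can be counted over their whole transcript, had 13 fold changes above 0 and 8 below. Pcdhb9 had 19.3 and 15.8 CPM in cKO and 16.0 and 10.6 CPM in WT. Its libraries overlapped, since cKO 2 was just below WT 1, and the log2 fold change was 0.40 (SE 0.190, unadjusted p of 0.046, edgeR adjusted p = 0.292). Single libraries moved this value, to 0.14 without WT 2, 0.25 without cKO 1, 0.54 without cKO 2 and 0.73 without WT 1, where the edgeR adjusted p was 0.057. Pcdhb8 had the highest fold change of the cluster, with 8.06 and 7.06 CPM in cKO and 5.82 and 5.40 CPM in WT. Both cKO libraries were above both WT libraries, yet the log2 fold change of 0.43 (SE 0.246) did not pass (edgeR adjusted p = 0.416). Pcdhb13 had the lowest, with 6.55 and 5.60 CPM in cKO and 9.71 and 7.77 CPM in WT. Both cKO libraries were below both WT libraries, at a log2 fold change of −0.52 (SE 0.239, unadjusted p of 0.041, edgeR adjusted p = 0.279), and −0.35 without WT 1.

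Pcdhb20 and Pcdhb17, the highest beta genes per kb beside Pcdhb9, had fold changes near 0. Pcdhb20 had 19.4 and 18.5 CPM in cKO and 19.8 and 18.4 CPM in WT, at a log2 fold change of −0.013 with an interval from −0.32 to 0.30. Pcdhb17 had 24.3 and 24.0 CPM in cKO and 23.2 and 24.3 CPM in WT, at 0.024 with an interval from −0.25 to 0.30. In both genes the genotypes overlapped. Pcdhb12 and Pcdhb19 were the other beta genes with both cKO libraries above WT, at log2 fold changes of 0.29 and 0.25, and Pcdhb5 and Pcdhb21 the others with both below, at −0.27 and −0.40. The antisense gene Gm37446 covers 1927 bases of Pcdhb12 and had 9.68 and 7.95 CPM in cKO and 6.36 and 7.02 CPM in WT. Pcdhb12 itself had 10.7 and 8.40 CPM in cKO and 7.44 and 8.21 CPM in WT, and the part of the antisense reads in its value was not tested. Pcdhb10 differed widely between the WT mice, with 8.47 and 8.96 CPM in cKO and 10.2 and 4.86 CPM in WT.

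The gamma cluster interleaves isoforms of its A and B subfamilies. The 12 A isoforms summed to 139.7 and 140.8 CPM in cKO and 136.5 and 146.1 CPM in WT, and 4 of the 12 had fold changes above 0. The 7 B isoforms summed to 63.9 and 69.1 CPM in cKO and 66.2 and 71.8 CPM in WT, and 2 of the 7 had fold changes above 0. The genotypes overlapped in both sums. Among single genes Pcdhga3 had the highest fold change, with 14.01 and 14.2 CPM in cKO and 12.7 and 10.2 CPM in WT. The fitted value was 0.30 on the log2 scale with an SE of 0.183 (edgeR adjusted p = 0.444), with both cKO libraries above both WT libraries. It was 0.15 without WT 2 and 0.48 without WT 1. Pcdhgb1 had the lowest, with 4.44 and 4.70 CPM in cKO and 5.72 and 6.59 CPM in WT. Here the fitted value was −0.43 with an SE of 0.273 (edgeR adjusted p = 0.474), with both cKO libraries below WT.

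Pcdhgb2, which lies near Pcdhgb1 and shares sequence with it, went the other way, with 11.6 and 11.0 CPM in cKO and 9.82 and 9.50 CPM in WT (log2 fold change 0.22, edgeR adjusted p = 0.631). The other gamma genes without overlap were Pcdhgb7, above WT in both cKO libraries at 0.24, and Pcdhgb5 and Pcdhga9, below WT at −0.29 and −0.42. None of these passed the test. Pcdhga11, the highest alternate isoform, had 24.5 and 22.1 CPM in cKO and 22.3 and 27.2 CPM in WT. These overlapped, at a log2 fold change of −0.088 with an interval from −0.38 to 0.21. The remaining 12 alternate gamma isoforms overlapped as well, and their log2 fold changes ran from −0.37 for Pcdhgb4 to 0.17 for Pcdhga5.

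Genes next to and over the clusters were read in the same way. Zmat2, a splicing factor gene before the alpha cluster, had 74.2 and 68.3 CPM in cKO and 63.9 and 63.1 CPM in WT (log2 fold change 0.17, edgeR adjusted p = 0.366). Taf7, a subunit of the general transcription factor TFIID whose gene lies between the beta and gamma clusters, had 11.1 and 10.2 CPM in cKO and 12.8 and 11.0 CPM in WT (−0.16, edgeR adjusted p = 0.748). Diaph1, an actin-nucleating formin gene after the gamma cluster, had 46.1 and 40.1 CPM in cKO and 40.1 and 49.3 CPM in WT (−0.052, edgeR adjusted p = 0.885). Zmat2 was without overlap between genotypes, while Taf7 and Diaph1 overlapped. The antisense genes with the most counts, BC037039 over Pcdhgc3 and Gm26672 over Pcdhga10 to Pcdhga12, had log2 fold changes of −0.017 and −0.0031, and no tested gene over or beside the clusters passed the test. The largest fold change among them was −1.02 for Gm10544, over Pcdha11, with 15 and 7 counts in cKO and 23 and 21 in WT (edgeR adjusted p = 0.283). Hars2, before the alpha cluster, had the lowest edgeR adjusted p, at 0.096, with a log2 fold change of 0.31.

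The regulators of isoform choice were also measured. Of 11 genes of CTCF and cohesin, 0 were higher and 0 lower in cKO, with a median log2 fold change of 0.010. Ctcf, which binds isoform promoters and the enhancers, had 102 and 104 CPM in cKO and 94.4 and 105 CPM in WT. Rad21, a core cohesin subunit, had 178 and 185 CPM in cKO and 185 and 194 CPM in WT, at −0.062, and Wapl, which releases cohesin from DNA, had 88.7 and 89.4 CPM in cKO and 85.6 and 83.7 CPM in WT, at 0.073. Of 11 genes of DNA methylation and silencing 0 passed in either direction, with a median of 0.044. Smchd1, which helps silence the clusters, had 76.1 and 73.7 CPM in cKO and 73.0 and 73.5 CPM in WT. Dnmt3b, the methyltransferase that acts on alternate promoters in the early embryo, had 3.02 and 5.83 CPM in cKO and 3.77 and 3.56 CPM in WT, and Setdb1, a histone H3K9 methyltransferase, had 75.2 and 68.6 CPM in cKO and 73.3 and 67.1 CPM in WT.

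Of 18 genes of signalling and processing downstream of these proteins 1 was higher and 0 were lower in cKO. Marcks, a membrane-bound actin regulator, had 801 and 877 CPM in cKO and 584 and 641 CPM in WT, and its fitted change was 0.45 on the log2 scale with an SE of 0.074 (edgeR adjusted p = 0.00081). This call was lost without cKO 1 or cKO 2, as was every call over all genes. The log2 fold change of Marcks was 0.52 without cKO 1 and 0.39 without cKO 2. Of 12 non-clustered protocadherins, single genes elsewhere in the genome, 0 were higher and 1 was lower. Pcdh9 had 144 and 138 CPM in cKO and 185 and 171 CPM in WT, or −0.33 on the log2 scale with an SE of 0.075 (edgeR adjusted p = 0.013). The call for Pcdh9 was lost without cKO 1 (0.297), without cKO 2 (0.493), without WT 1 (0.286) and with no filter on low counts (0.069). The median of the 12 genes was 0.16, with 8 of them above 0.

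The lists of neuron stages give the scale of the changes in the same libraries. The 8 markers of newborn neurons had a median log2 fold change of 0.69 and summed to 2354 and 2823 CPM in cKO and 2036 and 2111 CPM in WT. The 8 markers of mature granule neurons had a median of −0.40 and summed to 4092 and 3638 CPM in cKO and 4836 and 5010 CPM in WT. Both sums were without overlap between genotypes, whereas the 3 clusters had medians between −0.029 and 0.030. Whether opposite differences between cell types took part in the even levels of the clusters was not tested.

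**Figure D5:**
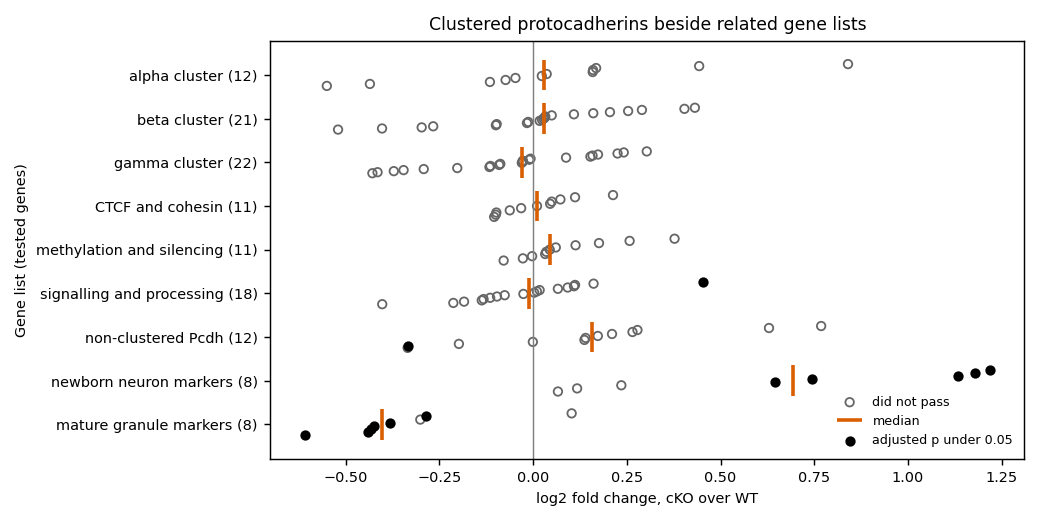
Log2 fold change of cKO over WT (horizontal) for each tested gene of the 3 clusters and of 6 other lists (rows, with the number of genes), filled where adjusted p is under 0.05 and with an orange line at the median. The clustered protocadherins have no filled point and medians near 0, while 5 newborn neuron markers lie to the right and 6 mature granule markers to the left.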

How the data were processed

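Poly(A)-enriched RNA of cerebellum had been sequenced as 150-base read pairs. Per the submitters' processing notes and the methods, trimming used Trimmomatic 0.38, alignment to GRCm38 used STAR 2.7.2b, and HTSeq counted reads over exons. What the authors deposited were raw counts for each gene symbol. All 55341 symbols were those of GENCODE M21, which gave positions, exon lengths and overlaps. The overlap mode and strand setting were not given in the sources used here. Sample titles gave genotype and replicate. Rows without a gene name entered neither library sizes nor tests. Assigned counts were 39.0% to 40.5% of entries, entries in no feature 48.8% to 49.6% and ambiguous ones 0.805% to 0.917%. How the reads of the constant exons divide between the entries outside gene counts was not tested. A chi-square test between replicates gave 4.02 per degree of freedom in cKO and 3.58 in WT over all tested genes, and 1.67 and 2.62 over the 55 tested members, above the sampling noise of 1.

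Genes were filtered with filterByExpr, scaled by TMM and tested with the two-sided quasi-likelihood test of edgeR 4.0.16 in R 4.3.3, with Benjamini-Hochberg adjustment over all 16617 tested genes and a threshold of 0.05. The script was tested on simulated counts. CPM per kb divides by exon bases that no other gene covers on the same strand. Sums over a cluster got no test. Members and gene lists were chosen with earlier results of these data known. Named were members past the threshold, the 5 C-type genes, the 3 highest members per kb and the highest and lowest fold change of each cluster, genes of the lists past the threshold with Ctcf, Rad21, Wapl, Smchd1, Dnmt3b and Setdb1, Kdm6b, and genes over or next to the clusters. Other members named in the text, and Hars2, were chosen after their values were seen. Alternatives covered scaling, the filter, DESeq2 1.42.0, limma-voom (limma 3.58.1), a replicate block and leaving out each library.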

Additional observations from a re-analysis of the deposited data

How the results depend on the processing

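No member was called lower in cKO under any alternative run, though DESeq2 gave no adjusted p for some members. The count of members higher in cKO was 0 in the reported fit and 1, Pcdha9, with library size alone, with the replicate block and without WT 1, so it ran from 0 to 1 when single libraries were left out. Whether mice with the same replicate number were paired is not given in the sample titles. Differences between replicates had a correlation of 0.043 between the genotypes over all tested genes, which does not decide this. The replicate block moved the calls over all genes from 671 to 1130. Without cKO 1 or cKO 2 edgeR called 0 genes in all, so those fits say little about members. The log2 ratio of the alpha sum was −0.0038 with upper-quartile scaling, 0.046 with library size alone and 0.091 without its highest member, and the beta and gamma ratios moved by less than the spread between mice. Signs of values near 0 turned. With library size alone, which shifted the median of all genes to 0.034, the log2 fold change was 0.00017 for Pcdhgc3, 0.019 for Pcdhgc4 and 0.017 for Pcdhb20. Leaving out single libraries gave −0.086 to 0.028 for Pcdhgc3, −0.094 to 0.079 for Pcdhgc4, −0.058 to 0.41 for Pcdhgc5, −0.0093 to 0.058 for Pcdhb17, −0.068 to 0.044 for Pcdhb20 and −0.22 to 0.062 for Pcdhga11. The ranges were −0.029 to 0.12 for Ctcf, −0.28 to 0.67 for Dnmt3b and −0.033 to 0.10 for Setdb1. Fold changes of Pcdhb9, Pcdhga3, Pcdha12, Pcdhac2, Pcdhac1, Rad21 and Smchd1 kept their sign in these fits but moved by over 1.5 times. The cause of these shifts was not tested.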
